A study of Mus musculus with 8 samples.

Results

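The data describe 10 genes that mark tissue macrophages, measured in mouse aorta with Affymetrix arrays: Csf1r, Cd163, Mrc1, Lyve1, Cd14, Cd68, Adgre1, Fcgr3, Fcer1g and Tyrobp. They were taken as all probe sets annotated to exactly one of these symbols, which gave 13 probe sets among 45037, and 10 genes among the 18193 with a probe set of their own. Csf1r had 3 probe sets, Lyve1 had 2 and the others had 1. The series compared aortas of 4 month-old mice with and without the gene of serum response factor (SRF), a transcription factor of muscle and cytoskeleton genes, in smooth muscle cells. All mice carried the SRF-flex2neo allele. The 4 mutant arrays came from SRF-flex2neo mice with a tamoxifen-inducible Cre recombinase in 1 allele of the SM22 gene (SM22CreERT2ki/+), a gene of smooth muscle that is now named Tagln. The 4 control arrays came from littermates labelled with the SRF-flex2neo allele alone. Tamoxifen (1 mg, intraperitoneal, on 3 days) was given to mutants and controls alike, with RNA taken 8 days later, so the Cre protein and the SM22 insertion cannot be told apart from the loss of SRF. Each array was made from 2 ug of total RNA of whole aorta, and whether arrays stand for separate mice is not stated, so a p-value covers the spread between arrays alone, which may be technical.

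Macrophages live in the wall of healthy arteries, mostly in the adventitia, where they clear debris and dying cells. Their survival depends on signals through the receptor encoded by Csf1r. Cd163, Mrc1 and Lyve1 encode scavenger and uptake receptors typical of resident macrophages of vessels, Cd14 a co-receptor for bacterial endotoxin, and Cd68 a glycoprotein of their lysosomes. Adgre1 encodes the surface antigen F4/80. Fcgr3 encodes a receptor for antibodies that signals through the adaptor encoded by Fcer1g, and Tyrobp encodes a related adaptor, DAP12, both of which carry an activation motif (ITAM) that recruits the kinase Syk. Several of these genes are not exclusive to macrophages: Lyve1 and Mrc1 are also active in lymphatic endothelium, and Fcer1g and Tyrobp in natural killer and mast cells. In whole-tissue RNA, more cells of a type and more RNA per cell cannot be told apart.

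Many macrophage genes are bound near their start sites by PU.1, the factor encoded by Spi1, so RefSeq promoter windows (GRCm38.p6) of 300 bases, from 250 before to 50 after a start site, were searched for GAGGAA, the core of its site, on either strand. The table held 6 such windows for 5 of the 10 genes (Cd163, Mrc1, Cd68, Fcer1g and Fcgr3, the last with 2 overlapping windows). The letters were found in 4 of these windows, belonging to 3 genes, and in 28.3% of 32851 windows of the same length in all. The bases before the start site are shown for these 3 genes, 5′ to 3′ on the strand of the gene, with GAGGAA or its reverse complement TTCCTC in capitals, because they let the copies be seen in place. Mrc1 (chr2:14229164-14229413, plus strand) has copies that begin 180, 167 and 35 bases before the start. Cd68 (chr11:69666171-69666420, minus strand) has a copy that begins 225 bases before the start and another after it, at base 30, which is not shown. Fcgr3 (chr1:171059395-171059644, minus strand) has a copy that begins 15 bases before the start of its first window, and the second window holds the same copy.
Mrc1: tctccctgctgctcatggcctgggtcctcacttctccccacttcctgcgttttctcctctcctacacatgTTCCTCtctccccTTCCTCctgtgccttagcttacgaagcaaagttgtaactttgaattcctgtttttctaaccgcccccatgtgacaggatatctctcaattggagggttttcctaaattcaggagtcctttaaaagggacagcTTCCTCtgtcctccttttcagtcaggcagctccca
Cd68: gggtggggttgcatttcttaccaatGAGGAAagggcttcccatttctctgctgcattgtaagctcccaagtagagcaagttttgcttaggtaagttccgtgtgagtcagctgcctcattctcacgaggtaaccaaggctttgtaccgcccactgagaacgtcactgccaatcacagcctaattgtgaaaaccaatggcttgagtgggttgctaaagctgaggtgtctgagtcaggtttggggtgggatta
Fcgr3: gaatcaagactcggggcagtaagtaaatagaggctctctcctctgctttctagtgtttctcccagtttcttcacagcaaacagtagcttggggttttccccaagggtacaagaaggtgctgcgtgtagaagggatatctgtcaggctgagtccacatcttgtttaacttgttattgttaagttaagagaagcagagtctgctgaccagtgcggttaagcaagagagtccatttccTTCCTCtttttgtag
The CArG box, the site of SRF, was found in 0 of the 6 windows and in 1.63% of all windows. A match is a description of the letters and not evidence of binding, and no match says nothing about the factor beyond this window.

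Array medians lay between 3.72 and 3.98 (log2). Array titles number 2 sets of 4, each with 2 controls and 2 mutants: controls 1 and 2 and mutants 1 and 2 form set 1, and the others set 2. The meaning of that number is not stated. The set entered the fit as a block, since 21.4% of probe sets differed between sets (limma adjusted p under 0.05). Mutant 2 stood apart, with correlations of 0.961 to 0.974 to the other arrays, which correlated with each other at 0.983 to 0.997. Control 3 was the highest control in 8 of the 10 genes, and the share over all genes was not counted. The labelled tissue was borne out by the smooth muscle genes Acta2, Tagln and Myh11, with means over all arrays of 15.36, 15.18 and 14.59.

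All 10 macrophage genes had higher means in the mutant aorta, by 0.54 (Lyve1) to 1.74 (Tyrobp) on the log2 scale, with a median of 1.05, where 1 is a 2-fold difference. None of them passed the adjusted threshold of 0.05 with limma, and the lowest adjusted p among them was 0.384. That threshold was passed by 0 of the 27023 probe sets tested, or 0% (2581 at an unadjusted p under 0.05). At an unadjusted p under 0.05, 9 of the 10 were higher, all but Cd68, beside 5.8% of the 12173 genes tested. In 3 of the 10, Csf1r, Cd14 and Fcer1g, all 4 mutants lay above all 4 controls, beside 2.06% of genes. The median difference of all genes tested was -0.02, and 44.4% of them had a difference above 0. A difference of 1 or more was found in 6 of the 10 and in 3.84% of all genes. All 10 had passed the filter on dim probe sets, and for each the mean of the controls alone lay above the lowest mean kept, 2.97. For Cd14 this was narrow, with 2.985 against 2.9725, and the mean of its set 1 controls was 2.94.

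**Figure D1:**
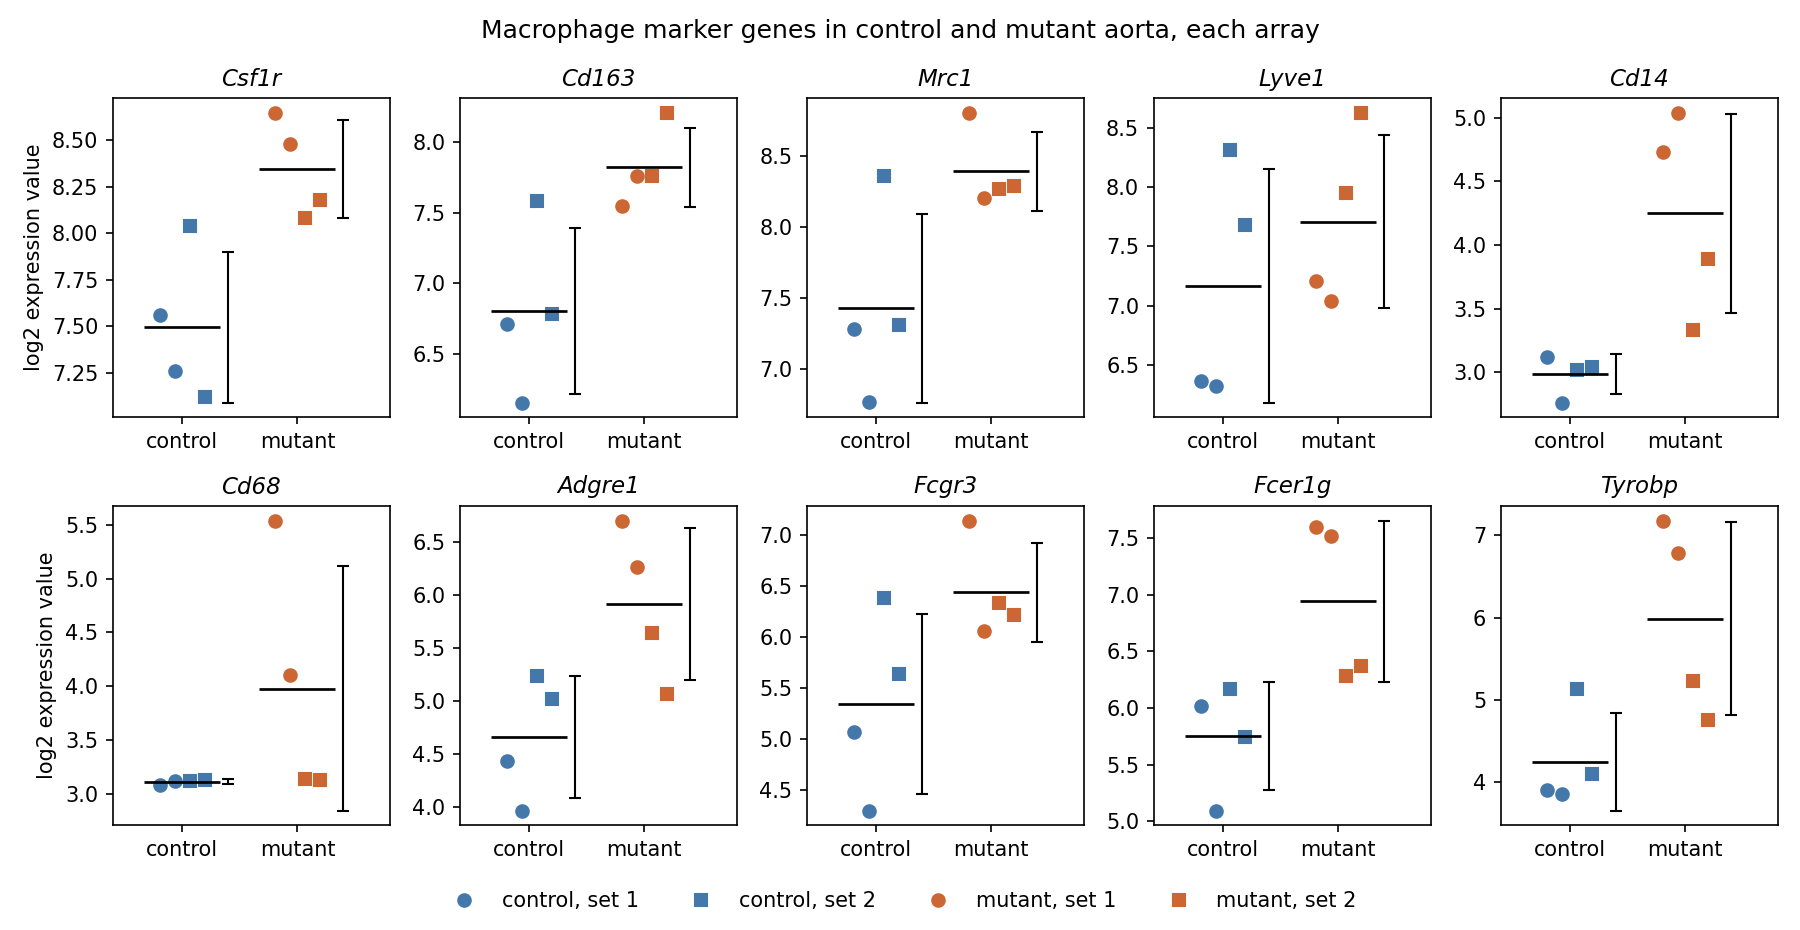
Log2 expression value (y axis, a separate scale per panel) of the brightest probe set of each of the 10 macrophage genes in 4 control and 4 mutant arrays, with circles for set 1 and squares for set 2, a line at the group mean and a bar of ± 1 SD beside it. The 4 mutants lie above the 4 controls for Csf1r, Cd14 and Fcer1g, and control 3 (the upper blue square in most panels) lies above 3 of the 4 mutants for Mrc1, Lyve1 and Fcgr3 and above 1 for Cd163, Adgre1 and Tyrobp.

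Csf1r, the receptor for the growth factors CSF1 and IL-34, was at 7.56, 7.26, 8.04 and 7.12 in controls 1 to 4 and at 8.65, 8.48, 8.08 and 8.18 in mutants 1 to 4 in its brightest probe set (log2 values). The groups did not overlap, although control 3 lay just below mutant 3. The means were 7.50 ± 0.41 (SD, n = 4) and 8.35 ± 0.26, and the limma difference was 0.85 (SE 0.23, 95% confidence interval 0.31 to 1.39, adjusted p = 0.432). Both other probe sets of Csf1r gave similar sizes, 0.99 (SE 0.28) and 0.92 (SE 0.45), with overlapping groups. The third of them, the dimmest, differed by 1.87 in set 1 and by -0.04 in set 2.

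Cd163 takes up complexes of haemoglobin and haptoglobin. Its controls were at 6.71, 6.15, 7.58 and 6.78 and its mutants at 7.55, 7.76, 7.76 and 8.21. Control 3 was just above mutant 1, and in no other pair did a control lie above a mutant. The difference was 1.02 (SE 0.23, limma adjusted p = 0.384), the smallest p of the 10 genes before adjustment (0.00346), and it was 1.23 in set 1 and 0.81 in set 2. Cd163 was thus the gene with the highest difference in set 2.

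Mrc1, the mannose receptor, was at 7.28, 6.77, 8.36 and 7.31 in controls and at 8.81, 8.21, 8.27 and 8.29 in mutants. Control 3 was above 3 of the 4 mutants, and the other controls were below all of them. The difference was 0.97 (SE 0.32, limma adjusted p = 0.47), and 1.28 without control 3.

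Lyve1, a receptor for the matrix sugar hyaluronan, differed least between groups and most between sets when each gene was read from its brightest probe set. Its brightest probe set was at 6.36, 6.32, 8.31 and 7.68 in controls and at 7.21, 7.04, 7.95 and 8.63 in mutants, so the set 2 controls lay above both set 1 mutants. The groups overlapped, with a two-sided exact permutation p of 0.429 when the set is left aside. With the set as a block the difference was 0.54 (SE 0.21, limma adjusted p = 0.51). Set 2 was higher than set 1 by 1.41 (SE 0.21, limma adjusted p = 0.00554). Lyve1 was the 1 gene of the 10 to pass the adjusted threshold of 0.05 for set, beside 21.4% of probe sets. A set difference of this kind was thus common on the arrays and not particular to the markers. The other probe set of Lyve1 gave a larger difference between groups, 1.01 (SE 0.29, adjusted p = 0.444), with controls at 6.30, 5.99, 7.58 and 7.10 and mutants at 7.94, 7.50, 7.48 and 8.09. The probe sets of this gene thus disagreed in size, not in direction.

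Cd14 was dim in controls, at 3.12, 2.76, 3.02 and 3.04, and at 4.73, 5.04, 3.33 and 3.89 in mutants. The groups did not overlap, and both set 1 mutants were above both set 2 mutants. The means were 2.99 ± 0.16 (SD, n = 4) and 4.25 ± 0.78, a difference of 1.26 (SE 0.30, limma adjusted p = 0.384). For Csf1r, Cd14 and Fcer1g the two-sided exact permutation p over 4 against 4 arrays was 0.0286 each when the set is left aside. That is the smallest value 4 against 4 arrays can give, and it follows from the groups not overlapping.

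Cd68 was at 3.08, 3.12, 3.12 and 3.13 in controls and at 3.14 and 3.13 in mutants 3 and 4, while mutants 1 and 2 were at 5.54 and 4.10. Its difference of 0.87 (SE 0.43, limma adjusted p = 0.561) therefore rested on 2 arrays, and it was 0.01 in set 2. This probe set was dim, with 47.8% of all probe sets below it in mean. Adgre1 was at 4.43, 3.96, 5.23 and 5.02 in controls and at 6.70, 6.26, 5.64 and 5.06 in mutants. The groups overlapped only in that mutant 4 lay below control 3. The difference was 1.26 (SE 0.43, limma adjusted p = 0.478), 2.29 in set 1 and 0.23 in set 2.

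The antibody receptor Fcgr3 was at 5.07, 4.30, 6.38 and 5.64 in controls and at 7.14, 6.06, 6.33 and 6.22 in mutants. Control 3 again lay above 3 of the 4 mutants, and the difference was 1.09 (SE 0.43, limma adjusted p = 0.511). Its adaptor Fcer1g was at 6.02, 5.09, 6.17 and 5.74 in controls and at 7.60, 7.52, 6.28 and 6.37 in mutants. These groups did not overlap, control 3 lying just below mutant 3, and the difference was 1.19 (SE 0.38, limma adjusted p = 0.462). Tyrobp had the highest difference of the 10 genes, 1.74 (SE 0.57, 95% confidence interval 0.39 to 3.09, limma adjusted p = 0.468). It was at 3.91, 3.86, 5.13 and 4.10 in controls and at 7.18, 6.78, 5.23 and 4.76 in mutants. Both set 1 mutants stood well above all other arrays, and mutant 4 lay below control 3.

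**Figure D2:**
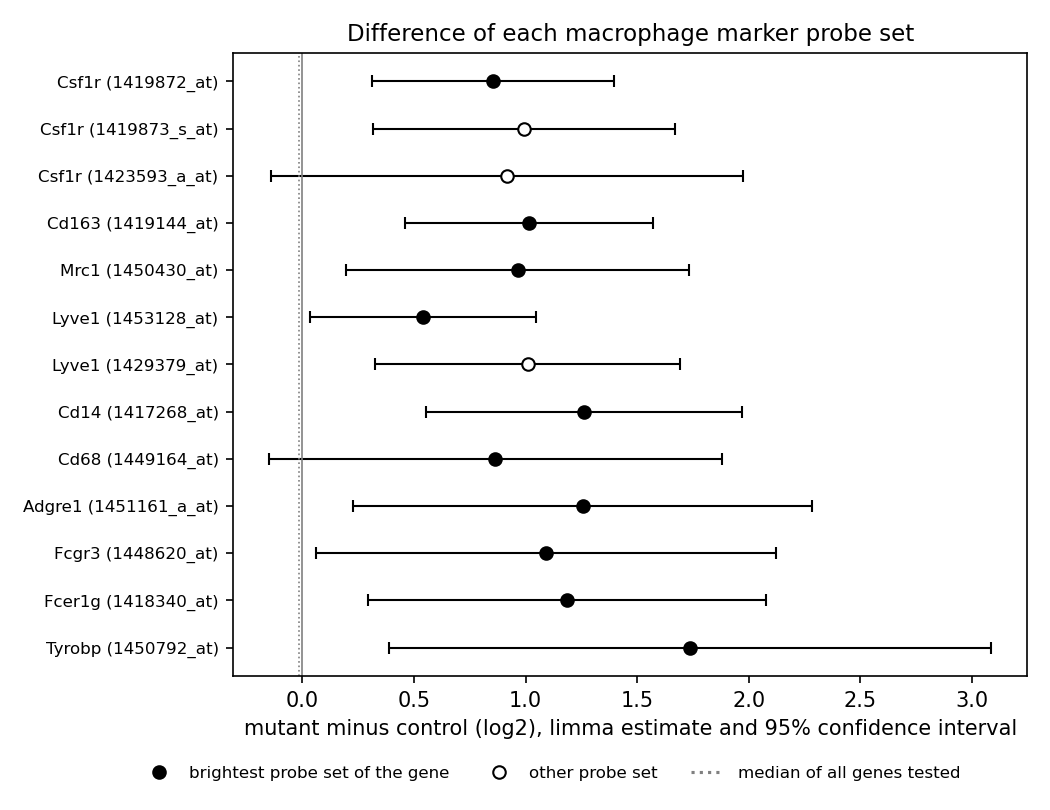
Difference between mutant and control aorta (x axis, log2, limma estimate with the set as a block; bars are 95% confidence intervals) for all 13 probe sets of the 10 genes, filled for the brightest probe set of each gene. All 13 estimates lie above 0, and the intervals of Cd68 and of the dimmest Csf1r probe set include 0.

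The difference was larger in set 1 than in set 2 for all 10 genes. In set 1 both mutants lay above both controls for 10 of 10 genes (18.8% of all genes), with differences of 0.79 (Lyve1) to 3.10 (Tyrobp) and a median of 1.82. In set 2 this held for 4 of 10 (16.6% of all genes), namely Csf1r, Cd163, Cd14 and Fcer1g, and the median was 0.38. Between sets, controls were higher in set 2 for 10 of 10 genes (median 0.74), though by only 0.025 for Cd68 and 0.09 for Cd14, both dim. Mutants were lower in set 2 for 8 of 10 (median -0.78), the others being Cd163 and Lyve1. The shares of all genes with such shifts were not counted. The difference between sets was tested as an interaction in limma: 6 of the 10 had an unadjusted p under 0.05 (Tyrobp, Adgre1, Cd14, Fcer1g, Cd68 and Fcgr3), all with the smaller difference in set 2, beside 3% of all genes in that direction. None of the 10 passed after adjustment (lowest adjusted p 0.492, Tyrobp), where 14 of 27023 probe sets (0.0518%) did. The interaction was -2.72 (SE 0.52) for Tyrobp and -2.06 (SE 0.40) for Adgre1, against -0.42 (SE 0.47) for Cd163, -0.49 (SE 0.41) for Lyve1 and -0.61 (SE 0.43) for Csf1r. Whether these genes differ from each other in this respect was not tested.

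**Figure D3:**
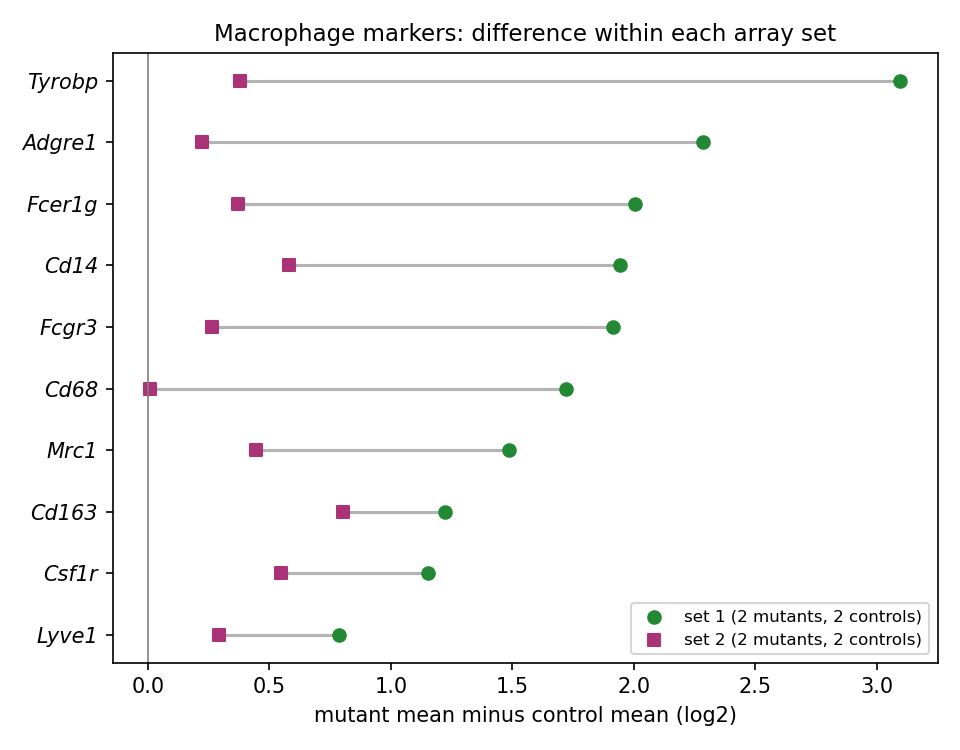
Mean of the mutants minus mean of the controls (x axis, log2) within set 1 (circles) and set 2 (squares), each from 2 mutant and 2 control arrays, for the brightest probe set of each gene. The set 1 value is the larger for all 10 genes, and the gap between the sets is widest for Tyrobp and narrowest for Cd163.

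The count of members at an unadjusted p under 0.05 changed when single arrays were left out, as did the share of all genes higher at that p (in brackets). It was 9 with all arrays (5.8%). Without controls 1 to 4 in turn it was 5 (3.65%), 4 (3.81%), 9 (6.18%) and 6 (4.21%). Without mutants 1 to 4 in turn it was 4 (5.82%), 6 (5.70%), 9 (5.38%) and 8 (5.41%). All 10 differences stayed above 0 when any array was left out. Without control 3 the median difference was 1.34 and the lowest adjusted p 0.0755 (Csf1r), against 1.01 and 0.401 without mutant 2. Over all alternatives the adjusted p of a member ranged from 0.0755 to 1.

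The other genes of these pathways were read from 6 lists, and the counts cover those that passed the filter on dim probe sets. Over all genes tested, 5.8% were higher and 4.6% lower at an unadjusted p under 0.05. In the list of macrophage lineage factors and the CSF1 receptor pathway, 0 of 8 genes (of 12 listed) had an unadjusted p under 0.05, 6 were higher and the median was 0.18. Csf1, the ligand of the receptor, differed by -0.16 (SE 0.19), from 9.42 ± 0.46 in controls to 9.26 ± 0.42 (SD, n = 4 each), and the other ligand gene, Il34, was near 2.01 in both groups and left out as dim. Spi1, which encodes PU.1, was dim too, at 2.12 to 2.16 in all arrays but mutants 1 and 2 (2.78 and 2.32). Irf8, a lineage factor left out as dim, was at 3.73 and 4.74 in mutants 1 and 2 and at 2.27 to 2.44 in the other arrays. Csf1, Il34, Spi1 and Irf8 were named after their values were seen. The lowest p values of this list belonged to Cebpb (0.30), Nr1h3 (0.38), Cebpa (0.82) and Zeb2 (0.35), transcription factors or nuclear receptors, none passing.

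Among genes of ITAM signalling and Fc receptors, 5 of 9 (of 16 listed) were higher at an unadjusted p under 0.05, 0 lower and 0 after adjustment, and the median was 0.50. The phosphatase Inpp5d was higher by 0.50 (SE 0.13, limma adjusted p = 0.421) in mutants, with 4 mutants above 4 controls, and the kinase Syk, which binds the adaptors, by 0.71 (SE 0.21). The phospholipase Plcg2 differed by 0.65 (SE 0.20) and the inhibitory receptor Sirpa by 0.54 (SE 0.17). The other gene of the 5, the Fc receptor gene Fcgr2b, had a larger difference, 1.45 (SE 0.50), 2.605 in set 1 and 0.30 in set 2. The Fc receptor gene Fcgr1 was at 3.41 in controls and 3.42 in mutants, and Trem2, a receptor that signals through DAP12, differed by -0.11 (SE 0.07). Both were dim, with 46.6% and 42.2% of all probe sets below them in mean. Clec7a was left out as dim, at 4.45 and 4.16 in mutants 1 and 2 and at 2.41 to 2.67 in the other arrays. Fcgr2b, Fcgr1, Trem2 and Clec7a were named after their values were seen.

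Of 9 genes of endotoxin recognition (of 12 listed), which act with CD14, 1 was higher and 1 lower at an unadjusted p under 0.05, and the median was 0. Lbp, the protein that hands endotoxin to CD14, was higher by 1.53 (SE 0.39, limma adjusted p = 0.411), with controls at 6.32, 5.74, 7.68 and 6.63 and mutants at 8.16, 8.49, 8.07 and 7.75. The 4 mutants lay above the 4 controls. The adaptor Tirap differed by -0.40 (SE 0.16) and the signalling ligase Traf6 by -0.36 (SE 0.18), while Ly86 differed by 1.02 (SE 0.43). The endotoxin receptor Tlr4 differed by -0.22 (SE 0.21) and its partner Ly96 was at 4.67 in both groups, both named after their values were seen.

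In the list of haemoglobin handling and scavenger receptors, 3 of 10 (of 16 listed) were higher and 0 lower at an unadjusted p under 0.05 (median 0.59, and 0.27 without mutant 2, with 0.98 in set 1 and 0.005 in set 2). Stab1, a scavenger receptor, was higher by 0.83 (SE 0.19, limma adjusted p = 0.384), the iron exporter Slc40a1 by 0.49 (SE 0.18) and the lectin Clec10a by 1.10 (SE 0.44). Clec10a passed the filter only through the mutants, its control mean lying below the lowest mean kept. Hmox1, the haem-degrading enzyme downstream of CD163, differed by 0.45 (SE 0.21), 0.98 in set 1 and -0.08 in set 2. Lysosome and phagosome genes had a median of 0.11, with 4 of 15 (of 16 listed) higher and 0 lower at an unadjusted p under 0.05: lysozyme gene Lyz2 (1.15, SE 0.36), Laptm5 (0.90, SE 0.29), Gpnmb (1.02, SE 0.36) and the protease gene Ctss (1.58, SE 0.57).

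In the list of other macrophage and monocyte genes 13 of 17 (of 20 listed) were higher and 0 lower at an unadjusted p under 0.05, with a median of 1.36, 2.33 in set 1 and 0.40 in set 2. Of the 17, 3 passed the filter only through the mutants, so this count is a description. The complement gene C1qb differed by 0.80 (SE 0.20, limma adjusted p = 0.394), Cybb, a subunit of the oxidase of phagocytes, by 1.75 (SE 0.47), Ms4a6c by 0.76 (SE 0.23) and Plac8 by 1.65 (SE 0.44), Plac8 being 1 of the 3 that passed only through the mutants. Ptprc, the pan-leukocyte gene of CD45, was named after its values were seen: it was at 3.69, 3.70, 4.16 and 3.65 in controls, at 6.99 and 7.10 in mutants 1 and 2, and at 3.77 and 4.51 in mutants 3 and 4. After adjustment no gene of the 6 lists passed.

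**Figure D4:**
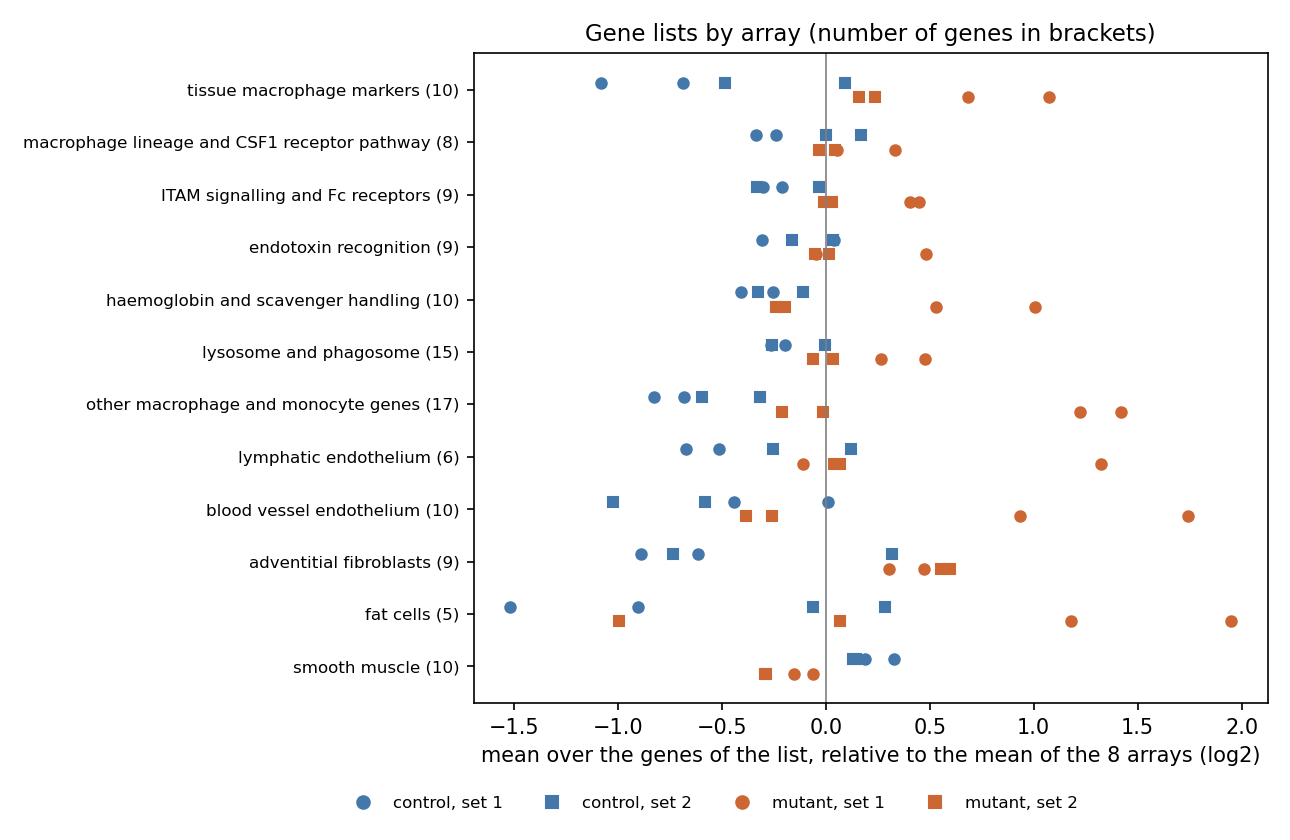
Mean over the genes of each list relative to its mean over the 8 arrays (x axis, log2) for lists with 5 or more genes tested, with blue for controls, orange for mutants, circles for set 1 and squares for set 2. The macrophage markers lie highest in mutants 1 and 2 (1.07 and 0.69), as do the blood vessel endothelium and fat cell lists. The lymphatic list is high in mutant 2 alone (1.32, mutant 1 at -0.11), a mean that includes Reln, which passed the filter only through mutant 2. The fibroblast list is at 0.31 to 0.60 in all 4 mutants and at 0.32 in control 3.

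Markers of other cell types also differed between the groups, and their part in the differences was not tested. The macrophage mean, relative to the mean of all arrays, was -1.08 to 0.09 in controls and 0.16 to 1.07 in mutants. Of 9 adventitial fibroblast genes 9 were higher (7 at an unadjusted p under 0.05, median 1.01), and their mean was -0.89 to 0.32 in controls and 0.31 to 0.60 in mutants. The most intense of them, Col1a1, Dcn and Dpt, differed by 0.17, 1.01 and 1.03. Of 10 blood vessel endothelial genes 10 were higher (8 at an unadjusted p under 0.05, median 0.97), among them Vwf (0.96), Pecam1 (0.70) and Tek (1.15), with means of -1.02 to 0.01 in controls and -0.38 to 1.74 in mutants. Of 10 smooth muscle genes 10 were lower (7 at an unadjusted p under 0.05, median -0.34), with means of 0.13 to 0.33 in controls and -0.29 to -0.06 in mutants. The most intense of them, Acta2, Tagln and Myh11, differed by -0.015, -0.29 and -0.21. SRF is itself a factor of muscle genes, and the mutants carry the Cre insertion in Tagln. For this list, fewer cells and less RNA per cell therefore cannot be told apart. Fat genes were higher in 5 of 5 over both sets (0 at an unadjusted p under 0.05), with a median of 2.77 in set 1 and of -0.54 in set 2, where all 5 were lower in mutants, and with means of -1.52 to 0.28 in controls and -0.997 to 1.95 in mutants.

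Lymphatic endothelium, which shares Lyve1 and Mrc1, was higher in 6 of 6 genes that passed the filter, 0 at an unadjusted p under 0.05, with a median of 0.69 and of 0.29 without mutant 2. Reln passed the filter only through mutant 2, so this count and the list mean, which both include it, are a description. With Reln included, the list mean was -0.67 to 0.12 in controls and -0.11 to 1.32 in mutants, the highest being mutant 2. Its defining factor Prox1 was at 2.92 to 3.17 in all 8 arrays, and Reln was at 8.54 in mutant 2 and at 2.23 to 2.86 in the others, both named after their values were seen. Pdpn, Flt4 and Mmrn1, the most intense of the list, differed by 0.57, 0.82 and 0.82. Mutant 2 was at 7.04 and 7.50 in the 2 probe sets of Lyve1, and mutant 1 at 7.21 and 7.94.

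Markers of other blood cells were mostly dim. Of the neutrophil genes 2 of 7 passed the filter, and S100a8 and S100a9 differed by 0.10 and 0.03, with Cxcr2 left out as dim. Of 7 dendritic cell genes 1 passed, Zbtb46 (0.07), with Siglech and Itgax at means of 2.32 and 2.25. Of 8 mast cell genes 2 passed, Kit (-0.24) and Hdc (0.38, passing only through mutant 2, at 4.44), and Mcpt4 was at 2.49. Of 9 natural killer and T cell genes 1 passed, Thy1 (0.89), a gene also active in fibroblasts, and Cd247 and Prf1 were at 2.77 and 2.61. Of 6 B cell genes 2 passed, Jchain (2.22, SE 1.01) and Ms4a1 (0.11), and Igll1 was at 2.71. Jchain was at 3.33, 6.12, 2.68 and 2.67 in controls and at 10.02, 7.66, 2.67 and 3.32 in mutants. Cd79a and Cd79b, left out as dim, were at 2.43 and 4.06 and at 3.06 and 3.47 in mutants 1 and 2. In the other arrays they were at 2.23 to 2.29 and at 2.35 to 2.41. Blk was at 1.83 to 1.88 in all arrays. Cd79a, Cd79b and Blk were named after their values were seen. Red blood cell genes passed in 2 of 3, Alas2 (0.80) and Slc4a1 (0.04), and Hba-a1 was at 2.41.

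The genes most like the mean of the 10 were Icam2, Lyz2, Dll1, Ccl9, Il15, Klf2, Lyz1 and Klf4. Likeness was the root mean square difference over the 8 arrays after each set's mean was taken off, which was 0.13 (Icam2) to 0.20 (Klf4) for these 8, against a median of 0.70 over the 12163 other genes. The members themselves were at 0.17 (Mrc1) to 0.51 (Tyrobp) from their own mean. Lyz1 and Lyz2 are near-identical lysozyme genes whose probe sets may not separate them. Icam2 encodes an adhesion molecule, Dll1 a Notch ligand, Ccl9 a chemokine, Il15 a cytokine, and Klf2 and Klf4 transcription factors. The 8 were picked for the smallest distance to a mean that is higher in mutants. Their small distances and their differences between groups and sets therefore follow from that choice and are a description. Icam2 differed by 1.14 (SE 0.25, limma adjusted p = 0.384) between groups, 1.65 in set 1 and 0.63 in set 2. Klf4 was the 1 gene of the 8 in which all 4 mutants lay above all 4 controls.

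**Figure D5:**
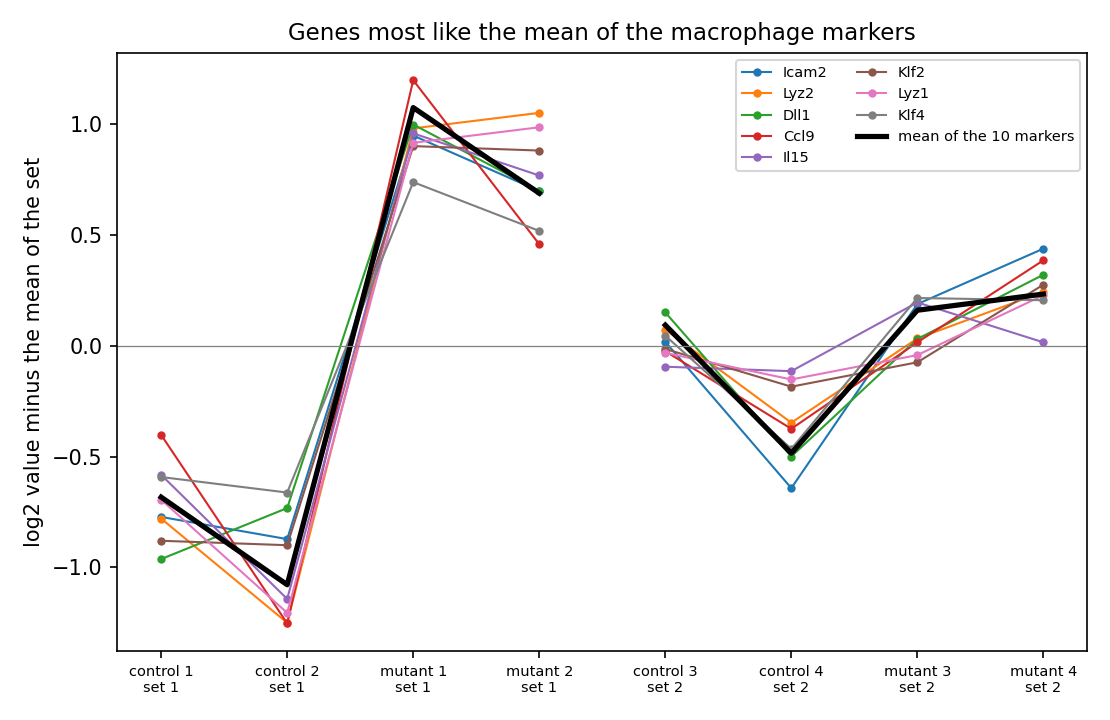
Log2 value minus the mean of the set (y axis) in each array (x axis) for the 8 genes most like the macrophage markers, with the mean of the 10 markers as a thick black line. All lines are highest in mutants 1 and 2, and the black line spans -1.08 to 1.07 in set 1 and -0.49 to 0.23 in set 2.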

How the data were processed

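Arrays were made from total RNA, per the labels' protocols. The deposited values are log2 values per probe set (0.9 to 15.82), a scale read from their range. GCOS is named in the submitters' processing notes, with background correction and normalization not given in the sources used here. Replicates are numbered in order within a group and pair nothing. Probe sets in the dimmest 40% by mean were dropped, leaving 27023 for limma 3.58.1 (R 4.3.3) with terms for genotype and set. The fit used a mean-variance trend, and two-sided p-values were adjusted by Benjamini-Hochberg over all 27023. An interaction term was fitted separately. Each SE is the moderated one. The brightest probe set represents a gene.

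The members, 6 pathway lists and 11 cell type lists were chosen with earlier results of these data known. Named genes are the members, up to 4 per pathway list by smallest p, up to 3 per cell type list by highest mean, and the 8 most like the members. Alternatives were other filters, normalizations and variance models, no set term, array weights, each array left out and each set alone. Figures used Python 3.11.15.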

Additional observations from a re-analysis of the deposited data

Results flagged for a closer look

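In the 178 groups of 4 arrays behind the genes named above, 15 held an array far from the other 3 by Dixon's criterion, and chance gives about 1 in 20. Fcgr2b, Clec7a, Irf8, Cd79a, Cd79b and Blk were not part of these groups. Among the 10 macrophage genes the single case was Mrc1, with mutant 1 at 8.81 and the next mutant at 8.29. Mutant 2 was the highest mutant for Nr1h3 (5.43, next 4.19), Zeb2 (11.87, next 10.96), Mmrn1 (6.57, next 5.10) and Hdc (4.44, next 2.91). Mutant 1 was the highest mutant for Klf4 (10.78) and Myh11 (14.57) and the lowest for Dpt (11.66). Mutant 3 was the highest for Prf1 (3.70) and Hba-a1 (2.51), mutant 4 for Slc4a1 (4.20), and control 4 was the lowest control for Plcg2 (4.43). Among genes named after their values were seen, Reln had mutant 2 at 8.54 (next 2.84) and control 1 at 2.23 (next 2.84), and Ptprc had control 3 at 4.16 (next 3.70).

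The difference between mutant and control aorta itself differed between the sets, by a limma interaction test over all probe sets, for 2 genes of the macrophage and monocyte list. Cd52, a small surface glycoprotein of leukocytes, differed by 3.56 in set 1 and 0.10 in set 2, an interaction of -3.46 (adjusted p = 0.0412). Aif1, a calcium-binding protein of macrophages, differed by 1.70 in set 1 and 0.02 in set 2, an interaction of -1.68 (adjusted p = 0.0321). Neither passed without any 1 of controls 1 to 4 or of mutants 3 and 4, and both passed without mutant 1 or mutant 2. When an array was left out, the interaction was -3.68 to -3.25 for Cd52 and -1.74 to -1.62 for Aif1. Each such fit keeps only 1 array of that group in that set, so passing without mutant 1 or mutant 2 is no added support.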

How the results depend on the processing

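All 179 values of single members under an alternative kept a difference above 0 and stayed on the same side of the adjusted threshold. The median of the 10 genes, 1.05, was 1.82 in set 1 alone and 0.38 in set 2 alone, and 0.80 to 1.34 when an array was left out. The count at an unadjusted p under 0.05, 9 with all arrays, was 10 in set 1 alone, 1 in set 2 alone and 4 to 9 when an array was left out. The share of all genes higher at that p was 5.10% in set 1 alone, 2.92% in set 2 alone and 3.65% to 6.18% when an array was left out. Each set alone rests on 2 mutant and 2 control arrays. With the stricter filter 6 of the 10 genes were tested. Over all probe sets, 0 passed the adjusted threshold, but 10 did with array weights and 0 to 11 when an array was left out (11 without control 3), none of them a macrophage member. The interaction between genotype and set, 14 probe sets, was passed by 36 with no filter and 1 with the stricter filter, and by 0 to 2750 when an array was left out, the highest without mutant 1 and 62 without mutant 2; it was passed by 2 members without mutant 1 and 1 without mutant 2. The causes were not tested. Median centring moved the median of all genes from -0.02 to -0.09 and that of the members to 0.98. No paired analysis was possible because the labels number arrays within a set and pair no mutant with a control. Signal limits Cd68 and Cd14, which were dim in controls.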
